A study of Mus musculus with 12 samples.

Results

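The genes described here belong to the interferon response and to the presentation of antigen by major histocompatibility complex (MHC) class I. They were 36 genes taken by symbol from a list, of the 26271 loci in the authors' deposited table for C2C12 cells. The rule lists the genes by name and uses no measured value, but the genes were chosen with earlier results of these data known. Shares of members given beside those of all loci are therefore a description only. By symbol 35 were found, and Ifi27 was read from the entry Ifi27l1, an older name of the same gene in the RefSeq gene table. C2C12 is an established line of mouse myoblasts, the precursor cells of muscle fibres. The cells had spent 24 h in DMEM, a standard culture medium, whose sugar was glucose at 25 mM (high glucose) or 5 mM (low glucose), or galactose at 10 mM. All 3 groups also received pyruvate (1 mM), serum (10%) and antibiotic (1%). Each group had 4 polyA RNA libraries, 12 in all, from this 1 cell line, and the labels do not say whether they came from separate cultures. The table holds 1 value per group and locus in FPKM, a level scaled to the length of the transcript and to the number of mapped fragments, so no spread between libraries can be given and the depth is unknown. The authors' tests describe these libraries only.

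Interferons are secreted proteins that bind receptors on the cell surface and act through JAK kinases and STAT transcription factors. Type I interferons lead to a complex with STAT2 and IRF9 that binds a DNA motif called the interferon-stimulated response element (ISRE). The genes switched on in this way encode RNA sensors, proteins that block steps of virus growth, and the machinery that displays peptides on class I molecules. Some of them, among them the class I genes, also have a basal level in cells that have met no interferon. Muscle cells are known to carry little class I on their surface under normal conditions and more in inflamed muscle.

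To show which response motifs lie before genes that went different ways in these data, 150 bases upstream of the start of 7 members are printed, from RefSeq promoters of build GRCm38.p6, read 5′ to 3′ on the gene's strand. Capitals mark the ISRE core, which was searched on both strands as GAAA, any 2 bases and GAAA again (TTTC, any 2 bases and TTTC when read from the other strand), or the core of the gamma-activated site, TTCNNNGAA, which reads the same on both strands. The stretches are chr19:34640739-34640888 for Ifit1, chr5:114923090-114923239 for Oasl1, chr2:122147537-122147686 for B2m and chr11:53769864-53770013 for Irf1, all on the plus strand. On the minus strand they are chr8:71537473-71537622 for Bst2, chr17:34000348-34000497 for H2-K1 and chr4:156200819-156200968 for Isg15.
Ifit1: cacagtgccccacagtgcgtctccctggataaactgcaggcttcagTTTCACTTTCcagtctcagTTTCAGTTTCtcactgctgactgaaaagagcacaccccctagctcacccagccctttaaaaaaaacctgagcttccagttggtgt
Oasl1: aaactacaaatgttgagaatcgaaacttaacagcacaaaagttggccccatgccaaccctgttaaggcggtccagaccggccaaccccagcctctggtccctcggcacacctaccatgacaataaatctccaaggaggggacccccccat
Bst2: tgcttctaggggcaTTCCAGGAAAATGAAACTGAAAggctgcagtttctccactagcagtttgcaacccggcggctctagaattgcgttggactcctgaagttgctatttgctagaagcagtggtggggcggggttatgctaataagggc
B2m: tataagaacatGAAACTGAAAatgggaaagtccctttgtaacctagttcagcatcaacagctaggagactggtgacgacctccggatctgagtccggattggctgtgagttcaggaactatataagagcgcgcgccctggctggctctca
H2-K1: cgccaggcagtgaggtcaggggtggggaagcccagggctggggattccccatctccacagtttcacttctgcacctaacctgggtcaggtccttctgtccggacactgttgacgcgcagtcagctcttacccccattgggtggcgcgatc
Irf1: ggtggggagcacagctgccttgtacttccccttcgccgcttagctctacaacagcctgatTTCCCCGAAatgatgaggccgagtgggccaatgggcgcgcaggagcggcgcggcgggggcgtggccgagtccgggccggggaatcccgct
Isg15: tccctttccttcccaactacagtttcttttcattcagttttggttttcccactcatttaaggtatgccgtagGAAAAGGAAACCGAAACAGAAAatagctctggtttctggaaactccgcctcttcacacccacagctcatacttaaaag
The ISRE core began 104 and 85 bases before the start of Ifit1 and 139 before B2m. It stood 130 and 124 bases before Bst2, where these copies overlap each other and a gamma-activated core at 136. Before Isg15, 3 overlapping copies began at 78, 72 and 66 bases. The gamma-activated core stood 90 bases before Irf1, and neither core was found in the stretches of Oasl1 and H2-K1. Over 250 bases upstream, 10 of the 29 members with a RefSeq promoter held the ISRE core: Stat2, Ifit1, Ifit3, Isg15, Gbp2, Gbp3, Bst2, Ifitm2, Rsad2 and B2m. Counted per promoter, because some genes have several, this was 27.8% of 36 member promoters, against 2.98% of all 32851 promoters in the table. The gamma-activated core was in 11.1% of member promoters and in 7.02% of all. A match is a stretch of letters in the reference genome, not a measured binding site. Only exact matches were counted, so the lack of a match does not show that a gene lacks a response element. Genes with the ISRE core were called higher in galactose (Ifit1, Bst2, B2m), called lower (Stat2, Ifitm2), not called (Isg15) or too low to test (Ifit3, Gbp2, Gbp3, Rsad2). Most of the printed stretches belong to genes called higher in galactose (Ifit1, Oasl1, Bst2, B2m, H2-K1). Only Irf1 among them was called lower, and the stretches of Stat2 and Ifitm2 are not printed.

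The labelled cell type was checked against its markers. All 7 myoblast markers were listed at 1 FPKM or more in every group, and Des, the gene of the muscle filament protein desmin, stood highest at 456 FPKM in high glucose according to the authors' deposited table. Of the markers of macrophages, T and NK cells, dendritic cells and endothelial cells that lie in a locus of their own, 1 of 24 reached 1 FPKM in a group, the monocyte receptor gene Cd14, at 6.87, 6.12 and 6.47 FPKM in high glucose, low glucose and galactose in the authors' deposited table. Adgre1, Cd4, Cd8a, Klrb1c, Siglech and Emcn were listed at 0 in all 3 groups. Summed over the 7 markers, myoblast genes went down from 753 FPKM in high glucose to 492 in low glucose and 398 in galactose according to the authors' deposited table. Des alone made up most of each sum, and not every marker followed it: Myog, a factor of muscle differentiation, was at 3.61, 1.42 and 2.78 FPKM in high glucose, low glucose and galactose by the authors' deposited table, called higher in galactose than in low glucose (q = 0.000239). The part of these marker changes in the members' values was not tested. A shift in the share of cells at some stage and a shift in RNA per cell cannot be told apart in such bulk samples.

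Of the 36 members, 18 stayed below 1 FPKM in all 3 media, and 12 of these were too low to test in any comparison. Among the members tested, falls outnumbered rises in low glucose. In galactose H2-K1, H2-D1 and B2m were among those called higher, and Irf1, Stat2, Ddx58, Tap1 and Tapbp among those called lower. A member was called where the authors' tool had marked it as tested and their q-value, which is adjusted over all tests of the 3 comparisons, was below 0.05. From high to low glucose 22 members were tested, of which 11 were called lower and 1 higher, 54.5% in all, against 36.4% of all loci tested. In that comparison 18.2% of all tested loci were called lower and 18.3% higher. The median log2 fold change was -0.29 over the tested members and 0.01 over all tested loci. From high glucose to galactose 24 were tested, of which 10 were called lower and 7 higher, 70.8% in all, against 51.3% of all loci, where 24.8% were lower and 26.5% higher. Here the median log2 fold change was -0.20 over the tested members and 0.01 over all tested loci. Both comparisons share the high glucose libraries, so their calls are not independent of each other. From low glucose to galactose 8 of 24 tested members were called higher and 3 lower, 45.8% in all, against 33.3% of all loci (17.4% higher, 16.0% lower), and both medians of the log2 fold change lay near 0, at -0.05 for members and 0.01 for all tested loci. The medians depended on which members were kept and on the scale: with a pseudocount of 1 FPKM they were -0.17 in low glucose and -0.11 in galactose against high glucose, and without Ifi27 the latter was -0.13. Without the 12 members whose interval overlaps another gene, the median was -0.0872 from high glucose to galactose and turned to 0.28 from low glucose to galactose. These counts rest on members that passed the tool's own limit on low values, and they are given as a description. The members called higher in galactose include Ifit1 and Oasl1, which stayed below 1 FPKM in every group. Both were tested only where galactose, their highest group, took part. With at least 1 FPKM in either group, 5 members were called higher in galactose than in high glucose. These were Bst2, B2m, H2-K1, H2-D1 and Isg20. Against low glucose the count was also 5, with Ifi27 in place of Isg20. Ifi27 was called lower in galactose than in high glucose, and Isg20 was not called between low glucose and galactose.

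**Figure D1:**
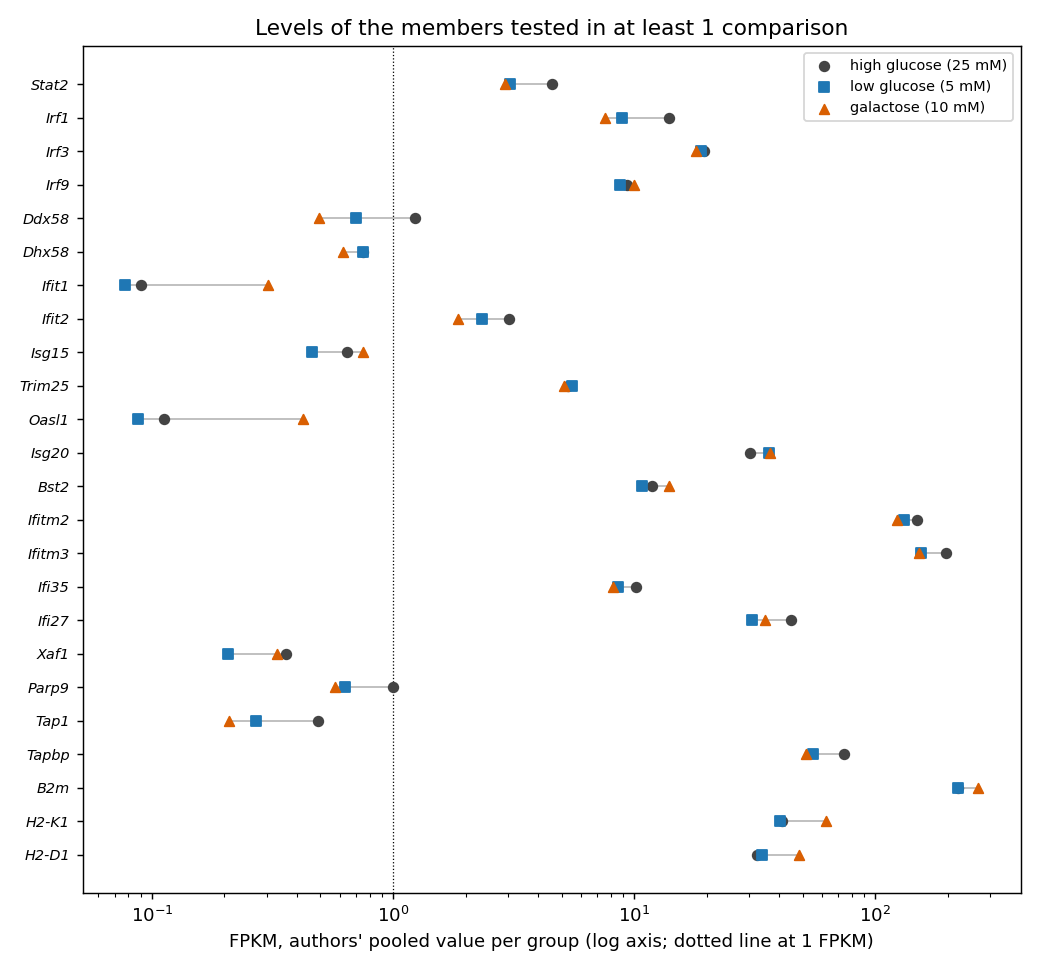
FPKM on a log axis (x) for each of the 24 members tested in at least 1 comparison (y), with a circle, square and triangle for the authors' pooled value in high glucose, low glucose and galactose and no error bars, since the table gives no values per library. B2m lies highest, at 219 to 266 FPKM, and Ifit1 and Oasl1 lie below 1 FPKM in every group.

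By level, the members fell into 18 that reached 1 FPKM in some group and 18 that did not. At the limit, Parp9 was just inside with 1.002 FPKM in high glucose and Dhx58 just outside with 0.754 FPKM in low glucose in the authors' deposited table. Over the 3 groups, 10 members were called lower both in low glucose and in galactose: Stat2, Irf1, Ddx58, Ifit2, Ifitm2, Ifitm3, Ifi27, Parp9, Tap1 and Tapbp. They were 45.5% of the 22 members tested in all 3 comparisons, and 13.8% of the 14243 loci so tested showed this pattern. For 6 of them galactose and low glucose were not called different, 3 (Irf1, Ddx58 and Ifit2) were lower still in galactose, and 1 (Ifi27) was higher in galactose than in low glucose. A second set of 4, Bst2, B2m, H2-K1 and H2-D1, was not called between the glucose media and was called higher in galactose than in either. These were 18.2% of the 22 members, and 6.39% of the 14243 loci showed this pattern. Ifit1 and Oasl1 were likewise higher in galactose than in either glucose medium, and were not tested between the glucose media. Isg20 was higher in both low glucose and galactose, and Xaf1 was lower in low glucose than in either other medium. Of the remaining 18 members, 6 were tested without a call and 12 were tested in no comparison.

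**Figure D2:**
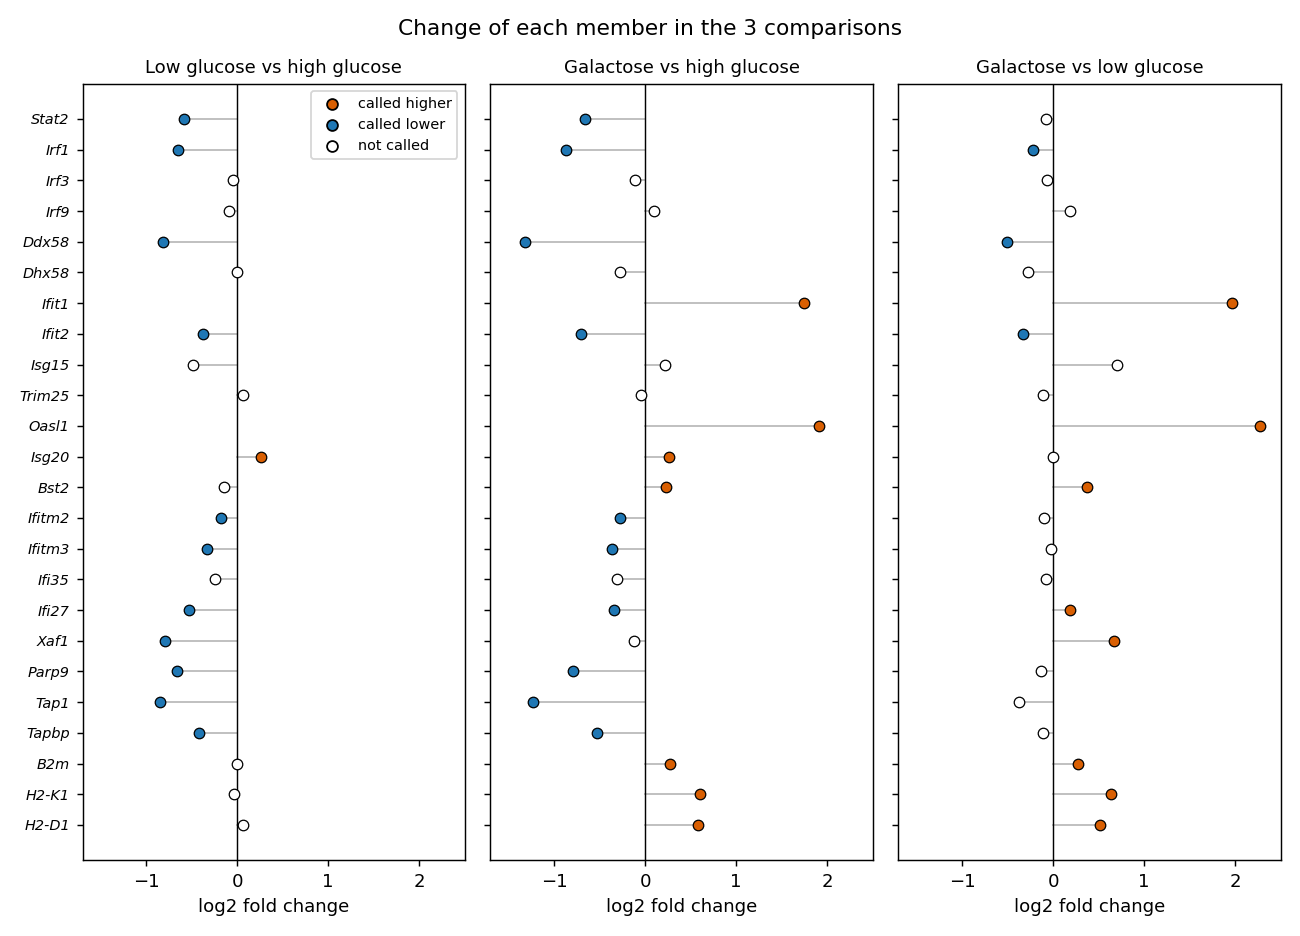
Log2 fold change (x) by the authors' deposited table of the 24 members in each comparison, 1 panel per comparison; filled points were called at q below 0.05, open points were not, and a missing point was not tested. In the first panel 11 of 12 called members lie left of 0, and in the second 7 of 17 lie right of it.

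Among the transcription factors, Irf1 and Stat2 were lower in both other media, while Irf3 and Irf9 were not called. Irf1 encodes an interferon- and cytokine-induced activator of class I and other immune genes, and its interval overlaps Gm17334. It was listed at 13.9, 8.86 and 7.59 FPKM in high glucose, low glucose and galactose in the authors' deposited table. High glucose stood highest and galactose lowest, with log2 fold changes from high glucose of -0.65 and -0.87 (q = 0.000239 for each, the lowest q that the table holds) and of -0.22 from low glucose to galactose (q = 0.0156) according to the authors' deposited table. Stat2, which encodes a transcription factor of the type I response, was at 4.58, 3.06 and 2.91 FPKM in high glucose, low glucose and galactose in the authors' deposited table. Its low glucose and galactose values lay together at 66.9% and 63.4% of high glucose according to the authors' deposited table, and they were not called different from each other (q = 0.508).

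Irf3, which is activated by RNA and DNA sensors and is made without induction, had the highest level of the 5 factors, at 19.6, 19.0 and 18.1 FPKM according to the authors' deposited table, with no call. Its interval overlaps Bcl2l12 on the other strand. Irf9, the DNA-binding part of the STAT complex, shares its locus with Rnf31, a ubiquitin ligase gene, and its interval overlaps Psme2. That locus was at 9.29, 8.72 and 9.93 FPKM according to the authors' deposited table, with no call, and the part of Irf9 in it cannot be told apart. Irf7, the factor that amplifies the type I response once it has begun, was at 0.236, 0.118 and 0.0613 FPKM according to the authors' deposited table and was too low for a test.

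The 3 RNA sensors were all low. Ddx58, which encodes RIG-I, a sensor of viral RNA ends, was at 1.24, 0.702 and 0.495 FPKM in high glucose, low glucose and galactose according to the authors' deposited table. It was called lower in all 3 comparisons in the authors' deposited table. From high glucose the log2 fold changes were -0.82 to low glucose and -1.32 to galactose (q = 0.000239 for each). From low glucose to galactose the log2 fold change was -0.51 (q = 0.000858). Ifih1, the gene of the long-RNA sensor MDA5, was not tested, with at most 0.119 FPKM according to the authors' deposited table. Dhx58, the gene of the regulator LGP2, has a pair of loci with the same interval, of which the more abundant was at 0.753, 0.754 and 0.621 FPKM according to the authors' deposited table, with no call. That interval also overlaps Zfp385c. The other Dhx58 locus was at 0.458, 0.176 and 0.125 FPKM according to the authors' deposited table and was called lower in galactose by a log2 fold change of -1.88 (q = 0.0337).

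The IFIT family, whose proteins bind foreign RNA and hold back its translation, did not move as a unit. Ifit2 was at 3.03, 2.34 and 1.86 FPKM in high glucose, low glucose and galactose in the authors' deposited table. It was called lower in all 3 comparisons according to the authors' deposited table. From high glucose the log2 fold changes were -0.38 to low glucose (q = 0.000456) and -0.70 to galactose (q = 0.000239). From low glucose to galactose the log2 fold change was -0.33 (q = 0.00317). Ifit1, its neighbour on chromosome 19 (34640889 to 34650009, mm10), went the other way in galactose, from 0.0902 and 0.0775 FPKM in the glucose media to 0.302 FPKM according to the authors' deposited table. The log2 fold change was 1.74 from high glucose and 1.96 from low glucose (q = 0.000239 for each) according to the authors' deposited table. At this level Ifit1 could pass the tool's limit only through its galactose value, since it was not tested between the glucose media. Ifit3 was not tested, with 0.0556 FPKM in high glucose as its highest value in the authors' deposited table. IFIT genes are similar in sequence, and how reads shared between them were assigned is not given in the sources used here.

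Oasl1 was called higher in galactose from a low level. The gene encodes a relative of the 2′-5′-oligoadenylate synthetases that is known to curb translation of Irf7 mRNA. It was at 0.112, 0.0875 and 0.423 FPKM in high glucose, low glucose and galactose according to the authors' deposited table. Galactose stood apart from both glucose media, by a log2 fold change of 1.91 from high glucose and 2.27 from low glucose (q = 0.000239 for each) in the authors' deposited table. Like Ifit1 it was tested only where galactose, its highest group, took part. With a pseudocount of 1 FPKM its log2 fold change from high glucose was 0.36, and that of Ifit1 was 0.26. Oasl2, which lies next to it, was not tested and was at 0.237, 0.0462 and 0.101 FPKM according to the authors' deposited table.

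Isg20 encodes an RNA exonuclease, and its locus also holds Aen, a nuclease gene that responds to p53. The joint locus was at 30.3, 36.3 and 36.4 FPKM in high glucose, low glucose and galactose in the authors' deposited table, called higher in both (q = 0.00161 and 0.00197). Isg20 and Aen reads cannot be told apart in this value. It was the only member called higher from high to low glucose, and without loci of several symbols none was.

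ISG15 is a ubiquitin-like protein that is joined to other proteins after interferon, and USP18 removes it. Isg15 was at 0.643, 0.459 and 0.748 FPKM in high glucose, low glucose and galactose according to the authors' deposited table and was called in no comparison. Its smallest q was 0.0551, between low glucose and galactose, in the authors' deposited table. Usp18 was nearly absent, with 0.0174 FPKM in galactose as its highest value according to the authors' deposited table. Trim25, a ubiquitin ligase gene linked to RIG-I signalling, lay above both, at 5.30, 5.54 and 5.13 FPKM according to the authors' deposited table, with no call. Outside the members, Ube2l6, which encodes the conjugating enzyme for ISG15, was at 13.0, 7.36 and 4.79 FPKM according to the authors' deposited table. Ube2l6 was called lower in each comparison (q = 0.000239 for all 3).

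The Mx and guanylate-binding proteins, GTPases that act on viruses and on vacuoles of intracellular microbes, were not tested in any comparison. Mx1 was listed at 0 in low glucose and at 0.00801 and 0.00617 FPKM in high glucose and galactose in the authors' deposited table, and Mx2 did not pass 0.00623 FPKM. Gbp2 was at 0.115, 0.0591 and 0.0297 FPKM and Gbp3 at 0.0910, 0.0697 and 0.0600 FPKM according to the authors' deposited table. Rsad2, the viperin gene, reached 0.0108 FPKM, Ifi44 0.0168 FPKM and Parp14, which encodes a large ADP-ribosyltransferase, 0.0651 FPKM in their highest group in the authors' deposited table. With Irf7, Ifih1, Ifit3, Usp18 and Oasl2, these made up the 12 members tested nowhere, and the highest value among them in any group was the 0.237 FPKM of Oasl2 according to the authors' deposited table. At an unknown depth, no difference between media can be read from such values.

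The membrane proteins that keep viruses from entering or leaving the cell were the opposite case. Ifitm3, which blocks fusion of viruses in endosomes and is also made in many resting tissues, was at 195, 155 and 152 FPKM in high glucose, low glucose and galactose in the authors' deposited table. Low glucose and galactose lay together below high glucose, with log2 fold changes of -0.33 and -0.36 (q = 0.000239 for each) according to the authors' deposited table. Its paralog Ifitm2 was at 149, 131 and 123 FPKM according to the authors' deposited table, also called lower in both (log2 fold changes -0.18, q = 0.0234, and -0.28, q = 0.000456). The IFITM genes are close copies, so reads could be shared between them, and the Ifitm2 interval overlaps Gm45717. Ifitm1, a further paralog that is no member, was lower by far more: it was at 6.12, 2.09 and 1.22 FPKM according to the authors' deposited table, a log2 fold change of -2.33 from high glucose to galactose (q = 0.000239).

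Bst2, which encodes tetherin, a protein that holds budding viruses on the cell surface, was at 11.9, 10.7 and 13.9 FPKM in high glucose, low glucose and galactose in the authors' deposited table. Galactose was the highest of the 3, by a log2 fold change of 0.37 from low glucose (q = 0.000239) and 0.22 from high glucose (q = 0.0425) according to the authors' deposited table. At a q limit of 0.01 the second of these calls ended.

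Among the other induced genes, Ifi27 was the most abundant, at 44.5, 30.7 and 35.0 FPKM in high glucose, low glucose and galactose in the authors' deposited table. The gene encodes a small mitochondrial and nuclear-envelope protein. Low glucose was its lowest medium (log2 fold change -0.53 from high glucose, q = 0.000239) and galactose lay between (-0.35, q = 0.000239, from high glucose and 0.19, q = 0.0377, from low glucose) according to the authors' deposited table. Xaf1, which encodes an antagonist of the apoptosis inhibitor XIAP, showed a dip in low glucose at 0.359, 0.207 and 0.329 FPKM according to the authors' deposited table. It was called lower from high to low glucose (q = 0.00317) and higher from low glucose to galactose (q = 0.0146) according to the authors' deposited table. Xaf1 stayed below 1 FPKM in every group, and with a pseudocount of 1 FPKM these log2 fold changes were -0.17 and 0.14. At a q limit of 0.01 the second call ended.

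Parp9, whose product pairs with the ubiquitin ligase DTX3L, was at 1.002, 0.635 and 0.577 FPKM according to the authors' deposited table, a log2 fold change of -0.66 in low glucose and -0.80 in galactose (q = 0.000239 for each). Dtx3l, which lies on the other strand and has the same deposited interval as Parp9, was chosen for mention after its values were seen. It went down with Parp9, at 0.634, 0.450 and 0.388 FPKM according to the authors' deposited table, and was called lower from high glucose in both media (q = 0.00825 and 0.000239). How far reads were shared between Parp9 and Dtx3l was not tested. Ifi35, the gene of a leucine zipper protein, was at 10.1, 8.57 and 8.15 FPKM according to the authors' deposited table with no call (q = 0.766 or above), and its interval overlaps Vat1 and Rnd2.

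Class I molecules present peptides to CD8 T cells. A heavy chain (in mice H2-K or H2-D) pairs with beta-2-microglobulin in the endoplasmic reticulum, and the peptides arrive through the TAP1-TAP2 transporter, bridged to the heavy chain by tapasin (Tapbp). In galactose H2-K1, the H2-D1 locus and B2m were called higher, and Tap1 and the Tapbp locus were called lower. H2-K1 was at 41.2, 40.2 and 62.3 FPKM in high glucose, low glucose and galactose according to the authors' deposited table. The glucose media lay together, and galactose was 1.51-fold higher than high glucose and 1.55-fold higher than low glucose (log2 fold changes 0.60 and 0.63, q = 0.000239 for each) in the authors' deposited table. The locus of H2-D1 also holds H2-L, H2-Q1 and H2-Q4 and lies on chromosome 17 from 35262638 to 35398942 (mm10), and H2-K1 lies on the same chromosome from 33974659 to 34000505. It was at 32.3, 33.9 and 48.4 FPKM according to the authors' deposited table, and galactose was higher by a log2 fold change of 0.58 from high glucose and 0.52 from low glucose (q = 0.000239 for each).

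B2m, the gene of beta-2-microglobulin, had the highest level of all members, rank 379 among the 26271 loci in high glucose. It was at 220.2, 219 and 266 FPKM in high glucose, low glucose and galactose in the authors' deposited table. Only galactose stood apart, by a log2 fold change of 0.27 from high glucose and 0.28 from low glucose (q = 0.000239 for each) according to the authors' deposited table. The deposited interval of B2m, chromosome 2 from 122120108 to 122186189 (mm10), is that of Patl2, within which B2m lies, and it also overlaps Trim69. Class I heavy chains are close copies of each other, and C2C12 cells come from a C3H mouse, whose class I alleles differ from those of the C57BL/6J reference genome. How far either affects the H2 values was not tested.

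Tap1 was at 0.488, 0.270 and 0.208 FPKM in high glucose, low glucose and galactose in the authors' deposited table. The transporter gene was thus far less abundant than the chains it serves. The interval of Tap1 overlaps Psmb9. Both other media lay below high glucose, with log2 fold changes of -0.85 (q = 0.000659) and -1.23 (q = 0.000239) according to the authors' deposited table, and they were not called different from each other (q = 0.174). Tapbp, in a locus with Rgl2 and Zbtb22, was at 74.2, 55.3 and 51.4 FPKM according to the authors' deposited table, lower by log2 fold changes of -0.42 and -0.53 (q = 0.000239 for each). Its share of that locus cannot be told apart.

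Other class I genes were also called in both directions, at shares near those of all loci. Of the list's 14 tested loci, 3 were called higher and 5 lower from high glucose to galactose, and 1 higher and 4 lower from high to low glucose. These were 57.1% and 35.7% of those tested, against 51.3% and 36.4% of all loci. Its median log2 fold change was -0.02 in galactose and -0.15 in low glucose. Nlrc5, which encodes the transactivator of class I genes, was at 0.454, 0.539 and 1.72 FPKM in high glucose, low glucose and galactose according to the authors' deposited table. The glucose media were not called different (q = 0.486), and galactose was 3.79-fold above high glucose and 3.19-fold above low glucose (q = 0.000239 for each) in the authors' deposited table. Tap2, the partner of Tap1, was at 2.29, 0.887 and 0.950 FPKM according to the authors' deposited table, called lower in both by log2 fold changes of -1.37 and -1.27 (q = 0.000239 for each). H2-T22, a non-classical class I gene in a locus with H2-T10 and H2-T9, was at 8.06, 5.75 and 4.46 FPKM according to the authors' deposited table and was lower in galactose by a log2 fold change of -0.85 (q = 0.000239). Chosen after their values were seen, Tapbpl and H2-T23 went against the direction of their kin among the members. Tapbpl, a relative of tapasin, was at 4.27, 3.99 and 6.42 FPKM by the authors' deposited table, called higher from high glucose to galactose (q = 0.000239). H2-T23, a non-classical class I gene, was at 10.1, 7.12 and 7.57 FPKM by the authors' deposited table, called lower in galactose (q = 0.0051). The deposited interval of H2-T23 is the same as that of the H2-T22 locus. How far reads were shared between these loci was not tested.

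**Figure D3:**
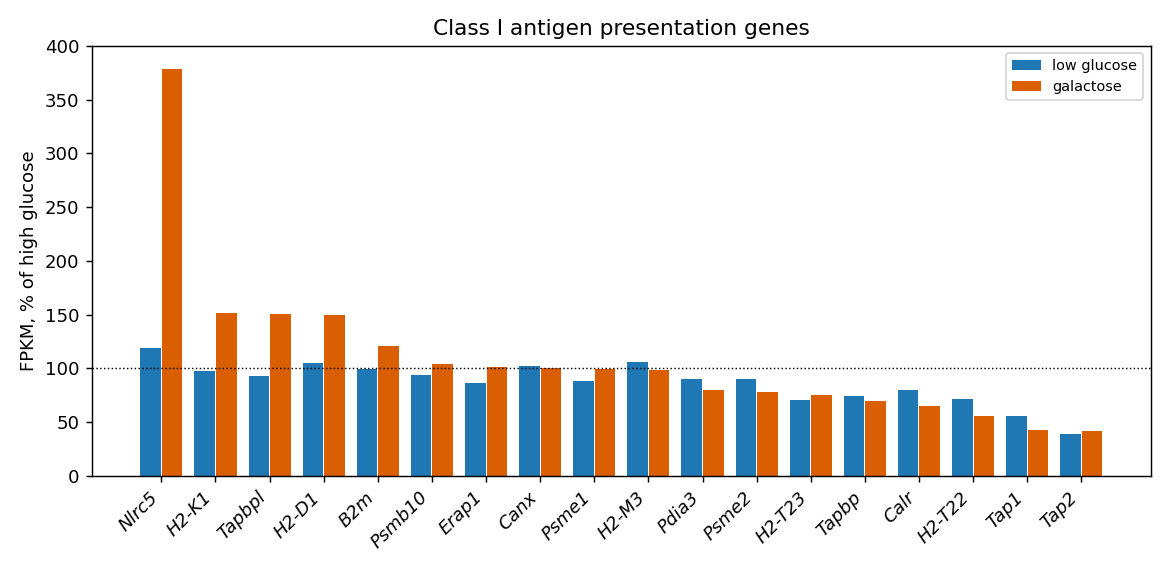
FPKM as a percentage of high glucose (y, dotted line at 100%) in low glucose and galactose for the 5 class I members and the 13 other class I loci that reached 1 FPKM in a group, ordered by the galactose value, from the authors' pooled values with no error bars. Nlrc5 stands at 379% in galactose, H2-K1, H2-D1 and B2m at 152%, 149.8% and 121%, and Tap1 and Tap2 at 42.7% and 41.5%.

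Of the inducible catalytic subunits of the immunoproteasome, Psmb8 and Psmb9 were not tested. They were at most 0.0266 and 0.0975 FPKM, both in high glucose, according to the authors' deposited table. Psmb10, a further such subunit, was at 9.16, 8.59 and 9.56 FPKM in high glucose, low glucose and galactose, with no call. Class II genes, which display peptides to CD4 T cells, were nearly absent: 1 of 8 reached 1 FPKM. That gene was H2-DMa, a peptide-loading factor of class II, at 1.54, 1.07 and 0.996 FPKM according to the authors' deposited table, called lower in low glucose (q = 0.00283) and in galactose (q = 0.000456).

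The ligands themselves were not seen. Of 10 interferon genes looked up, among them Ifnb1 and Ifng, 9 were listed at 0 in all 3 groups, and Ifne was the exception, with at most 0.0183 FPKM according to the authors' deposited table. Receptors and signalling genes were present, 12 of 13 at 1 FPKM or more in some group. From high glucose to galactose 2 of 12 tested were called higher and 5 lower, and from high to low glucose none was called higher and 4 were called lower. These shares, 58.3% and 33.3%, lay near the 51.3% and 36.4% of all loci. Ifnar2, a chain of the type I receptor, was at 17.6, 19.7 and 29.3 FPKM according to the authors' deposited table, a log2 fold change of 0.73 from high glucose to galactose (q = 0.000239). Jak2, a kinase of the interferon gamma receptor, went from 6.71 through 5.99 to 4.52 FPKM according to the authors' deposited table, a log2 fold change of -0.57 to galactose (q = 0.000239).

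Genes around the nucleic acid sensors were called both ways. Of 15 tested, 2 were higher and 4 lower from high glucose to galactose, and 2 higher and 6 lower from high to low glucose. Of all loci tested, 51.3% were called in the first comparison and 36.4% in the second, where 53.3% of this list were called. Irf5, a factor downstream of Toll-like receptors, was at 1.90, 1.37 and 1.003 FPKM and had a log2 fold change of -0.92 from high glucose to galactose (q = 0.000239) according to the authors' deposited table. Samhd1, which breaks down nucleotides that viruses need, was at 28.2, 25.0 and 15.9 FPKM with a log2 fold change of -0.83 (q = 0.000239) in the authors' deposited table. Mb21d1, the gene of the DNA sensor cGAS, went the other way at 3.72, 4.65 and 5.70 FPKM, a log2 fold change of 0.62 (q = 0.000239) according to the authors' deposited table.

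In the longest list, 52 loci of other interferon-stimulated genes, only 16 reached 1 FPKM in some group and 22 were tested from high glucose. From high to low glucose 11 were called lower and 1 higher, with a median log2 fold change of -0.27 over the tested loci. From high glucose to galactose 11 were called lower and 5 higher, with a median of -0.31. In all, 54.5% were called in low glucose and 72.7% in galactose, against 36.4% and 51.3% of all loci. Beside Ifitm1 and Ube2l6, the list's largest changes in galactose among genes at 1 FPKM or more included Ifi203, a gene of the p200 family of DNA-binding proteins, which rose from 1.97 to 5.77 FPKM (log2 fold change 1.55, q = 0.000239) in the authors' deposited table. In low glucose Ifi203 was at 2.68 FPKM and was not called different from high glucose (q = 0.104) according to the authors' deposited table. A locus of Ifi204, Mnda, Mndal and AI607873 has the same interval. That locus was at 22.7, 30.5 and 41.1 FPKM in high glucose, low glucose and galactose, also called higher in galactose. How far reads were shared between these loci was not tested.

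**Figure D4:**
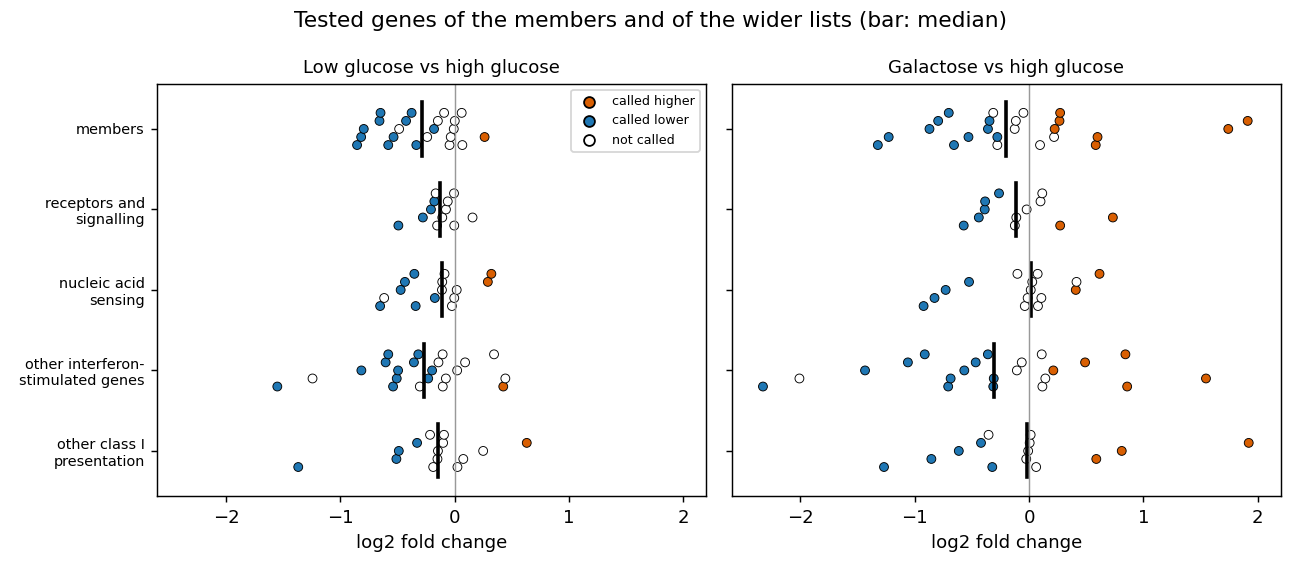
Log2 fold change (x) by the authors' deposited table of every tested gene among the members and in 4 lists of related genes (rows; the vertical spread within a row only separates points), for low glucose (left) and galactose (right) against high glucose, with a black bar at each median. The medians of the members are -0.29 and -0.20, and those of the other interferon-stimulated genes -0.27 and -0.31.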

How the data were processed

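PolyA RNA of C2C12 cells was sequenced (NEBNext Ultra kit, per the labels). The series' design text instead describes freshly isolated or cultured muscle stem cells; the labels of the samples set the groups. Build mm10 and the tools TopHat2 2.0.10, Cuffdiff and Cufflinks 2.2.0 are named in the submitters' processing notes. Settings, strand handling and normalization between libraries are not given in the sources used here. The deposited table gives FPKM per group, the log2 fold change (no pseudocount), a test score, a p-value and a q-value for each comparison. The deposited q-value equals a Benjamini-Hochberg adjustment over all 44006 tests marked OK, to a relative difference of 4.7e-06; the adjustment code was also tested on simulated data. The deposited test score was not used. No test of differences was rerun.

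A symbol was matched after splitting the gene column at commas, and the locus with the highest summed FPKM was taken. Starts were raised by 1. Overlaps used protein-coding genes of GENCODE M21 (GRCm38, the sequence of mm10). The members and lists were chosen with earlier results of these data known. The lists held 124 symbols in 6 pathway lists and 33 markers; Ifit3b and H2-Q6 were not matched, and H2-Q4, H2-L and Slfn9 share a locus already used. Named genes were all members and, per list, up to 3 genes called from high glucose to galactose. Those of the lists had the largest absolute log2 fold change and at least 1 FPKM. Psmb8, Psmb9, Psmb10, Dtx3l, Tapbpl, H2-T23 and the Ifi204 locus were added after their values were seen. One gene that the rule names is not reported here. Alternatives were a q limit of 0.01, a 2-fold change (absolute log2 fold change of at least 1), at least 1 FPKM, adjustment within a comparison, no combined loci, re-centring, a pseudocount of 1 FPKM and the locus with the smallest q. Leaving out Ifi27, or members overlapping other genes, was added after the data were seen. Software was matplotlib 3.10.9, scipy 1.17.1, numpy 2.4.6, pandas 2.3.3 and Python 3.11.15.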

Additional observations from a re-analysis of the deposited data

How the results depend on the processing

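All 40 calls of members over the 3 comparisons kept their direction wherever the member was kept. With q below 0.01, 5 of the 40 ended: Ifitm2 from high to low glucose, Bst2 from high glucose to galactose, and Irf1, Ifi27 and Xaf1 from low glucose to galactose. Adjustment within each comparison, re-centring, a pseudocount and the locus with the smallest q ended none; by the smallest q, Dhx58 gained a call from high glucose to galactose. A 2-fold limit left 0 higher and 0 lower from high to low glucose, 2 higher and 2 lower from high glucose to galactose, and 2 higher and 0 lower from low glucose to galactose. The 2 that stayed higher were below 1 FPKM in every group. With at least 1 FPKM in either group, 5 were higher from low glucose to galactose. Without combined loci, 0 were higher from high to low glucose. Without members that overlap another gene, 0 were higher and 6 lower from high to low glucose, and 4 were higher and 5 lower from high glucose to galactose.

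The members' median log2 fold change from high to low glucose was -0.21 at 1 FPKM or more, -0.36 without combined loci and with the locus of smallest q, -0.17 with a pseudocount, -0.24 without Ifi27 and -0.43 without overlapping members. From high glucose to galactose it was -0.30, -0.28 without combined loci, -0.21 re-centred, -0.11 with a pseudocount, -0.13 without Ifi27 and -0.0872 without overlapping members, the first at 1 FPKM or more. From low glucose to galactose it was -0.0724 without combined loci, -0.0581 re-centred, -0.0383 with a pseudocount, -0.0247 with the locus of smallest q, -0.0713 without Ifi27, and turned to 0.28 without overlapping members, where 12 members were left out. The cause was not tested. No paired analysis was possible because the deposited table has 1 pooled value per group; for the same reason no library could be left out.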

Other observations

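Symbols that occur at more than 1 locus gave different levels by locus, as Dhx58 did; Eif2ak2 and Ikbke were chosen for mention after their values were seen. Eif2ak2, the gene of the RNA-activated kinase PKR, was listed at 130.2 FPKM in high glucose at one locus and at 0.891 FPKM at another, with no call from high glucose to galactose at either (q = 0.176 and 0.876) in the authors' deposited table. Ikbke, a kinase gene that acts on IRF3, was listed at 3 loci, with 5.54, 0.766 and 1.81 FPKM in high glucose in the authors' deposited table, and none was called from high glucose to galactose (q = 0.540 or above). The third of these loci was called lower from high to low glucose (q = 0.0239) in the authors' deposited table.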
